A study of Mus musculus with 12 samples.

Results

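Lysosomal genes of the mouse microglial line BV-2 were followed through treatment with luteolin, LPS or both. The set held 46 genes, chosen by name as cathepsins and other lysosomal proteases, glycosidases and sulfatases, lipid hydrolases and lipid transporters, lysosomal membrane proteins, subunits of the lysosomal proton pump and regulators of the lysosome. The rule uses gene names and no measured value, but the set was put together with earlier results of these arrays known. A probe set was found for 45 of the 46 genes, and all 45 were among the 12064 genes tested of 18162 genes named. Cd63, a membrane protein of late endosomes and lysosomes, had no probe set under its symbol here and was not analysed.

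The series compared luteolin + LPS (50 µM luteolin with 50 ng/ml LPS), LPS (50 ng/ml), luteolin (50 µM) and untreated control cultures after 24 h, with 3 Affymetrix Mouse Genome 430 2.0 arrays per group and 12 in all. LPS, from the outer membrane of Gram-negative bacteria, is sensed by Toll-like receptor 4 of microglia, and luteolin is a flavonoid found in plants. The comparisons addressed how luteolin changes the microglial transcriptome at rest and during LPS activation. All groups came from BV-2, a single immortalized line, and whether the control cultures received the DMSO in which luteolin was dissolved is not given in the sources used here. The joint treatment is taken as luteolin + LPS from the sample labels, because the methods name LPS on both sides of that treatment. Each signal is an RMA intensity, which sets all arrays to 1 common distribution, so fewer cells or less RNA per cell could not be seen, and levels were compared between groups for the same gene, never between genes.

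The array medians lay between 52.2 and 56.4, arrays of 1 group correlated with an r of 0.978 to 0.996, and no pair of arrays was identical. Of 12 microglia and macrophage markers, 10 or 11 had a mean signal of 50 or more in each group, with P2ry12, Cx3cr1 or both below it. Their summed signal per array was 28807 to 41707 in luteolin + LPS, 32884 to 38411 in LPS, 37446 to 41734 in luteolin and 37602 to 39468 in control. Between 0 and 3 of the markers of neurons, astrocytes, oligodendrocytes and fibroblasts reached 50 in any group. Of the 5 oligodendrocyte markers measured, 3 reached 50 in every group, and Mog and Olig2 did not. The summed oligodendrocyte markers were lower in luteolin + LPS, at 859.8 to 1269, than in LPS, at 1388 to 1602. They were 1245 to 2001 in luteolin and 1361 to 2430 in control. The part of these markers in the results was not tested.

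Lysosomes break down proteins, glycans and lipids with acid hydrolases, which work at the low pH that a vacuolar-type proton pump, the V-ATPase, maintains. Heavily glycosylated membrane proteins protect the limiting membrane, and channels and transporters move ions and breakdown products across it. In phagocytes such as microglia, this system digests engulfed material, and many of its genes carry a short E-box motif near their start at which the transcription factor TFEB can act.

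The promoters of 4 lysosomal genes are shown, because 2 of them carry this motif and the other 2 belong to genes whose values are given in full in the comparisons that follow. Lamp1 encodes an abundant glycoprotein of the lysosomal membrane, and Mcoln1 encodes a calcium channel of that membrane. Lipa encodes the lysosomal acid lipase, which splits cholesteryl esters and triglycerides, and Laptm5 encodes a lysosomal membrane protein of blood cells and macrophages. Each window runs from 250 bases before to 50 bases after the annotated start (RefSeq, GRCm38.p6), 5′ to 3′ on the strand of the gene. Capitals mark the letters TCACGTG, or the same letters read on the other strand. The windows lie at chr8:13158911-13159210 (plus strand) for Lamp1, chr8:3500269-3500568 (plus strand) for Mcoln1, chr19:34527425-34527724 (minus strand) for Lipa and chr4:130913066-130913365 (plus strand) for Laptm5.
Lamp1: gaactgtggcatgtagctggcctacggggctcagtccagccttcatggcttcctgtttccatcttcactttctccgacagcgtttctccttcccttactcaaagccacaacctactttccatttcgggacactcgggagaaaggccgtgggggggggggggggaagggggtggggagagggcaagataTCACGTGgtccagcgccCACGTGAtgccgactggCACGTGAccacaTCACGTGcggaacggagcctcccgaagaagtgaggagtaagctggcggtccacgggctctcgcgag
Mcoln1: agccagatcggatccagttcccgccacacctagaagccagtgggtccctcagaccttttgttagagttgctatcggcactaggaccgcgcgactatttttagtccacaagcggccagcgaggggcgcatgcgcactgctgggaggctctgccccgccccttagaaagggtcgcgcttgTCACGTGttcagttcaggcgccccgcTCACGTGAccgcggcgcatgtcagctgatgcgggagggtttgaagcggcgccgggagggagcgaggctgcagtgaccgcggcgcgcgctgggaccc
Lipa: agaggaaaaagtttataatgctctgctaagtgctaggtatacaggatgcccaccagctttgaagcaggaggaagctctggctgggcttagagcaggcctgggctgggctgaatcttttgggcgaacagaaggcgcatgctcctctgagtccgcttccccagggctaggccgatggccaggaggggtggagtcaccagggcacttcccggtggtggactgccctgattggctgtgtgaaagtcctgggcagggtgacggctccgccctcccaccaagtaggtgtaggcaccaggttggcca
Laptm5: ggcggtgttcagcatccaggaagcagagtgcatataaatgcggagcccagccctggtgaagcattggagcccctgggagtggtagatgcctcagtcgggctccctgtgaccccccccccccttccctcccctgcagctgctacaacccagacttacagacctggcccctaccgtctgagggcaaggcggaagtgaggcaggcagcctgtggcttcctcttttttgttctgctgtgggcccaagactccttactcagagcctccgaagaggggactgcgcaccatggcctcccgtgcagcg

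The core CACGTG started 61, 45, 28 and 15 bases before the start of Lamp1 and 71 and 45 bases before that of Mcoln1. The windows of Lipa and Laptm5 held no CACGTG. A promoter window was matched for 38 of the 46 genes. The 8 without one were Asah1, Atp6v0d2, Atp6v1b2, Atp6v1h, Ctsb, Ctsh, Galns and Npc1. CACGTG, searched on both strands, was found in 12 of the 38 (31.6%), against 11.6% of the 9798 tested genes with a window and 7.15% of all 32851 windows of the same length. The longer TCACGTG, which contains CACGTG, was found in 11 of the 38 (28.9%), against 6.87% of the tested genes and 3.77% of all windows. These 11 genes were Atp6v0d1, Atp6v1a, Ctsa, Ctsd, Gaa, Gla, Glb1, Lamp1, Lgmn, Mcoln1 and Naglu, and Ctsl held the shorter core alone.

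Few of the 45 lysosomal genes passed the test, and few of all genes tested did. With luteolin alone, limma called 0 of 45 lysosomal genes higher or lower than control at an adjusted p under 0.05, and 0% of all genes tested. The 2 genes with an unadjusted p under 0.05 were Manba and Lipa, against 9.09% of all genes. A second fit, with a term for the replicate number that is called the block from here on, also called 0 of 45 in either direction, against 0.0829% of all genes higher and 0.199% lower. In activated cells, 0 of 45 were higher and 0 lower in luteolin + LPS than in LPS, against 0.149% and 0.356% of all genes. Unadjusted, 7 of 45 had a p under 0.05, against 14.9% of all genes. With the block, Lipa was called higher and Atp6v0d2 lower, against 1.95% and 2.84% of all genes. With the replicate number as a random block, neither was called (adjusted p = 0.0705 for Lipa and 0.0621 for Atp6v0d2).

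LPS lowered 1 lysosomal gene, Laptm5, and raised 0 of 45, against 2.22% of all genes lower and 1.96% higher than control. Unadjusted, 6 of 45 had a p under 0.05, against 20.5% of all genes. With the block, Laptm5, Lgmn and Man2b1 were called lower and 0 higher, against 6.79% and 4.29% of all genes. In the presence of luteolin, LPS again lowered Laptm5 alone of the 45 and raised 0 of 45, against 1% lower and 0.804% higher among all genes in luteolin + LPS than in luteolin. Unadjusted, 8 of 45 had a p under 0.05, against 11.5% of all genes. With the block, Laptm5, Lgmn, Atp6v0d2 and Atp6v1b2 were called lower, against 2.85% of all genes, and 0 higher, against 1.74%. Over resting and activated cells together, the mean effect of luteolin was called in 0 of 45, against 1.16% of all genes higher and 1.92% lower. Unadjusted, 5 of 45 had a p under 0.05, against 19.4% of all genes. With the block, Lipa was called higher and Ctsc, Idua, Manba and Atp6v0d2 lower, against 3.89% and 6.23% of all genes. The interaction of luteolin with LPS was called in 0 of 45 and in 0% of all genes, with and without the block. Unadjusted, 0 of 45 had a p under 0.05 for it, against 3.15% of all genes.

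By the brightest probe set of each gene, which gave every value here unless another is named, most changes were small. Dimmer probe sets of some genes gave larger differences, which are described further below. A log2 fold change of 0.5 or more in size was seen in 5 of 45 genes in luteolin + LPS versus LPS, against 12.3% of all genes, and in 2 of 45 in luteolin versus control, against 5.76%. LPS versus control and luteolin + LPS versus luteolin each had 5 of 45 (11.1%), against 15.8% and 10% of all genes. In luteolin + LPS versus luteolin the lysosomal share was thus above that of all genes. The 95% interval of the log2 fold change lay within 1 in either direction for 42 of 45 genes in luteolin + LPS versus LPS, with Ctsc, Lipa and Atp6v0d2 outside. It did so for 41 of 45 in luteolin versus control, 41 of 45 in LPS versus control and 43 of 45 in luteolin + LPS versus luteolin, against 83.8%, 88.1%, 81.2% and 85.7% of all genes in the same 4 comparisons. For the mean effect of luteolin, 4 of 45 (8.89%) reached 0.5 in size, against 6.73% of all genes. For this effect 43 of 45 intervals lay within 1, against 93.4%. For the interaction, 1 of 45 reached 0.5, against 8.16%, and 42 of 45 intervals lay within 1, against 74.4%. The standard error of a log2 fold change had a median of 0.15 over the 45 genes and 0.17 over all genes. It was lowest for Ctsz and highest for Atp6v0d2, followed by Lipa.

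**Figure D1:**
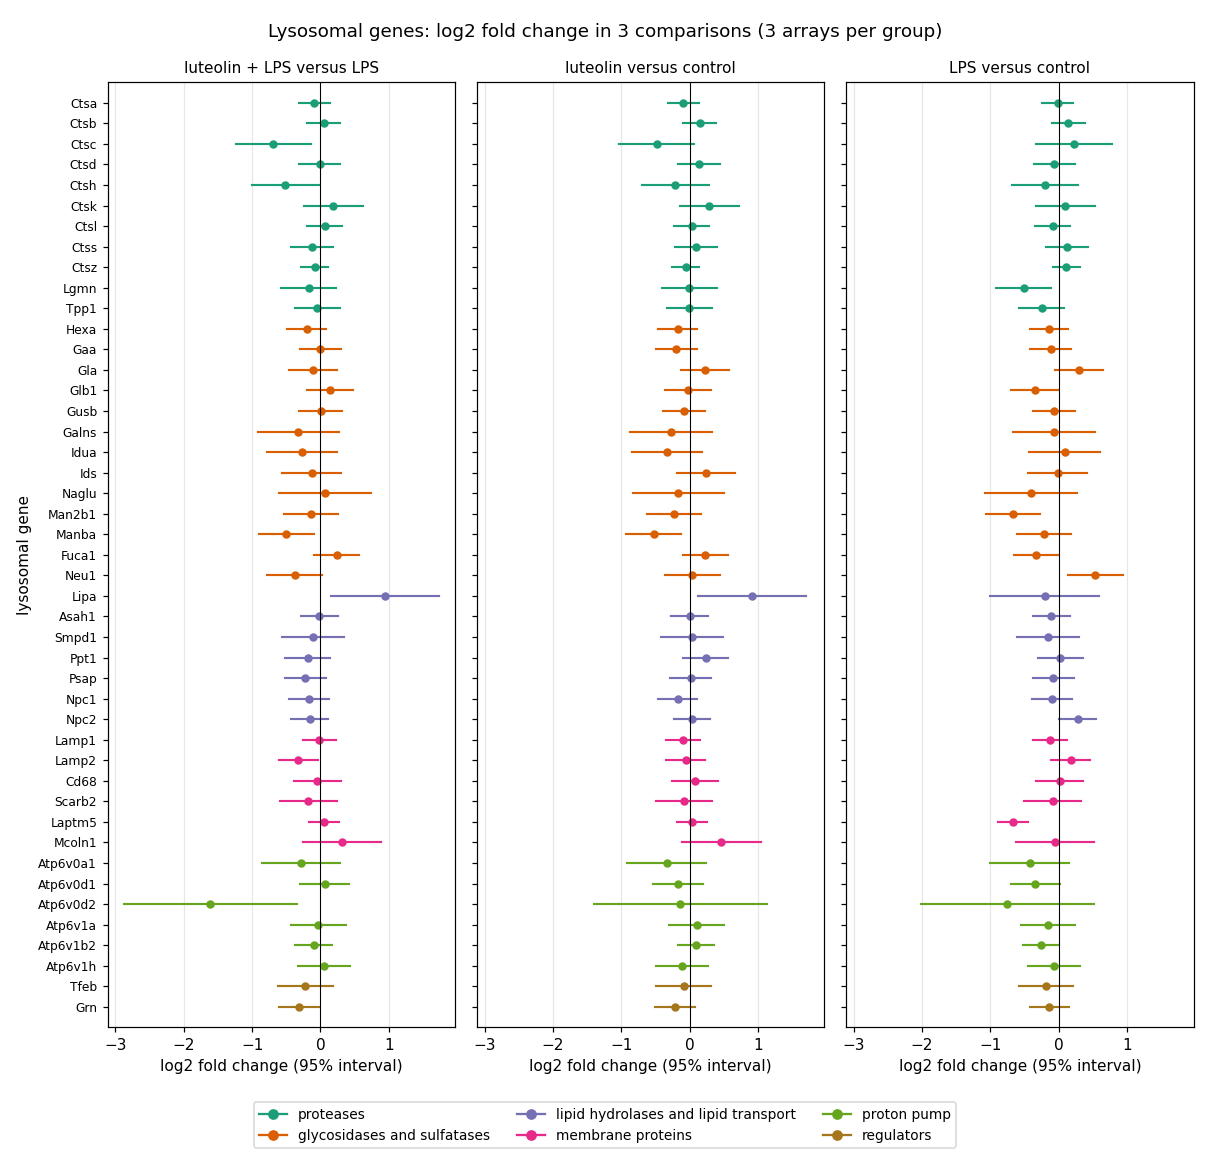
Log2 fold change (x axis) of the 45 lysosomal genes (y axis, coloured by role) in luteolin + LPS versus LPS, luteolin versus control and LPS versus control, with points for limma estimates from 3 arrays per group and lines for 95% intervals. Most intervals cross 0, Lipa lies near 0.9 in both luteolin comparisons, Atp6v0d2 has the widest intervals, and Laptm5 lies at -0.68 for LPS versus control.

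**Figure D2:**
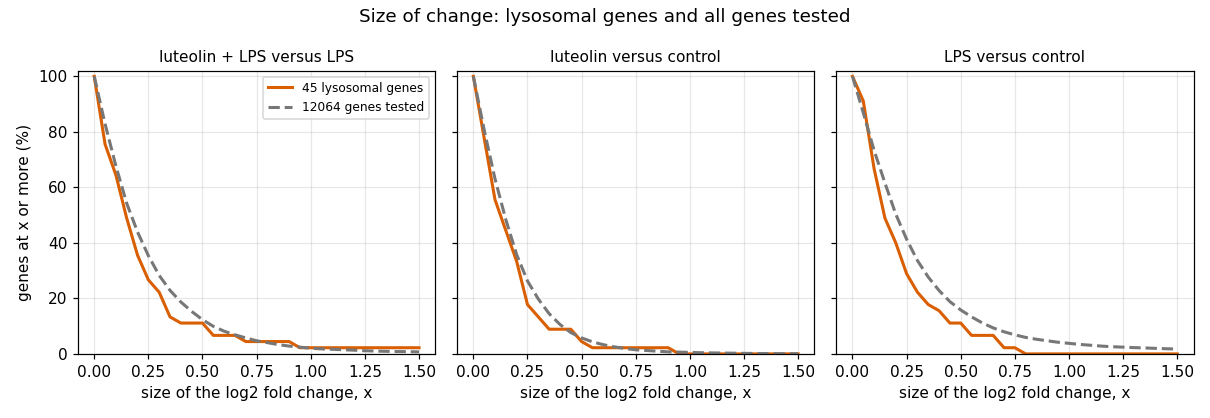
Share of genes (y axis, %) whose log2 fold change reaches the size on the x axis, for the 45 lysosomal genes (solid line) and the 12064 genes tested (dashed line), in the same 3 comparisons. At a size of 0.5, the lysosomal line is at or below the line of all genes in each panel. Luteolin + LPS versus luteolin and the mean effect of luteolin are not drawn. There the lysosomal share at 0.5 was above that of all genes (11.1% against 10%, and 8.89% against 6.73%).

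More lysosomal genes lay below 0 than above it where LPS was present, with small medians. Of the log2 fold changes, 33 of 45 were below 0 in luteolin + LPS versus LPS, with a median of -0.11, against 47.1% of all genes and a median of 0.02. In LPS versus control, 33 of 45 were below 0 with a median of -0.10, against 54.9% of all genes and a median of -0.04. In luteolin + LPS versus luteolin, 35 of 45 were below 0 with a median of -0.17, against 49.8% and 0.00. Luteolin versus control split 25 below 0 and 20 above, with a median of -0.02 against -0.01 for all genes. The medians were at most 0.17 below 0. The median standard error of 0.15 holds for a single gene and does not measure the spread of a median over 45 genes. For luteolin + LPS versus LPS, 21, 37 and 28 of 45 genes were below 0 within replicates 1, 2 and 3, and for LPS versus control 30, 30 and 33. The counts were 32, 32 and 34 for luteolin + LPS versus luteolin, with medians of -0.13, -0.19 and -0.20. For luteolin versus control they were 19, 38 and 26. Single arrays also moved the medians by over 1.5 times. In luteolin + LPS versus LPS the median was -0.04 without luteolin + LPS replicate 3, -0.05 without replicate 2 and -0.17 without replicate 1 of that group or LPS replicate 3. In LPS versus control it was -0.05 without LPS replicate 3 and -0.16 without LPS replicate 2, and in luteolin + LPS versus luteolin it was -0.08 without luteolin replicate 1. In luteolin versus control it was -0.09 without control replicate 3 or luteolin replicate 1, -0.00 without luteolin replicate 2, and 0.01 without control replicate 2 or luteolin replicate 3, so its sign turned.

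Of the 11 proteases, none passed the test without the block in any comparison. Ctsc, cathepsin C, which activates serine proteases of immune cells by removing dipeptides, had signals of 3755, 3388 and 6103 in luteolin + LPS, against 7578, 6330 and 6782 in LPS. In luteolin it had 2963, 5062 and 5019, against 5017, 6305 and 6512 in control. Each luteolin-treated culture was below its untreated partner of the same replicate number, and the groups overlapped at rest but not with LPS. Ctsc had a log2 fold change of -0.69 ± 0.25 (SE) in luteolin + LPS versus LPS (limma adjusted p = 0.230) and -0.59 ± 0.18 for the mean effect (adjusted p = 0.104, and 0.0425 with the block). Without luteolin + LPS replicate 3 the mean effect of Ctsc was -0.72 (adjusted p = 0.0397). The 2 other Ctsc probe sets gave -0.15 and 0.56 in luteolin + LPS versus LPS. The set with the opposite direction lay near the cut-off of 50, so its direction carries little weight. Its geometric means were 52.7 in luteolin + LPS and 35.6 in LPS, against 4266 and 6878 in the brightest set.

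Lgmn encodes legumain, an asparaginyl endopeptidase that also matures other cathepsins. It had 5555, 6055 and 4261 in luteolin + LPS and 5220, 7748 and 5084 in LPS, against 8297, 8765 and 8155 in luteolin and 7550, 9480 and 8340 in control. All 3 luteolin + LPS arrays were below all luteolin arrays, whereas LPS replicate 2 was above control replicate 1. The log2 fold change was -0.68 ± 0.18 in luteolin + LPS versus luteolin (adjusted p = 0.107, and 0.0206 with the block) and -0.51 ± 0.18 in LPS versus control (adjusted p = 0.143, and 0.0397 with the block). Without LPS replicate 2, LPS versus control gave -0.71 (adjusted p = 0.0443). A single probe set measured Lgmn, and luteolin versus control gave -0.00 ± 0.18.

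Ctsh, cathepsin H, an aminopeptidase, had 1224, 722.9 and 1426 in luteolin + LPS, against 1521, 1743 and 1385 in LPS, 1574, 1494 and 1552 in luteolin and 1529, 2060 and 1787 in control. Luteolin + LPS replicate 2 was the lowest of the 12 arrays. The log2 fold change was -0.51 ± 0.22 both against LPS (adjusted p = 0.306) and against luteolin (adjusted p = 0.396). Without luteolin + LPS replicate 2 both differences were -0.22. The other 8 proteases, Ctsa, Ctsb, Ctsd, Ctsk, Ctsl, Ctss, Ctsz and Tpp1, were under 0.5 in size in all 4 pairwise comparisons by the brightest probe set. The protease median was -0.09 in luteolin + LPS versus LPS, -0.00 in luteolin versus control and -0.01 in LPS versus control.

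Dimmer probe sets of 3 of these proteases gave larger differences. Over all roles, 36 genes were under 0.5 in all 4 pairwise comparisons by the brightest set, and 23 of them had another set with a mean signal of 50 or more in a group. Of these 37 other sets, 8 reached 0.5 in a comparison, in the 6 genes Ctsb, Ctsl, Tpp1, Gla, Scarb2 and Atp6v1b2. They are given as a description, with no test.

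Ctsb, cathepsin B, a cysteine protease, had log2 fold changes of 0.05 in luteolin + LPS versus LPS and 0.15 in luteolin versus control by its brightest set. The other 4 sets gave 1.15, 0.48, 0.42 and 0.03 with LPS and 0.99, 0.81, 0.56 and 0.22 at rest. The set with the largest values had signals of 1226.5, 801.9 and 608.3 in luteolin + LPS, against 489.6, 350.0 and 318.9 in LPS, and 1491.9, 603.0 and 1120.0 in luteolin, against 660.4, 456.3 and 426.6 in control. In that set Ctsb was above its partner of the same number in 6 of 6 pairs, with the groups apart with LPS and overlapping at rest.

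Ctsl, cathepsin L, another cysteine protease, gave 0.06 with LPS and 0.03 at rest by its brightest set, and 1.24 and 0.80 by its other set. The other set had 253.3, 407.1 and 349.5 in luteolin + LPS, against 92.7, 187.1 and 158.3 in LPS, and 420.7, 490.0 and 438.3 in luteolin, against 225.5, 283.9 and 267.8 in control. The groups were apart in both luteolin comparisons in this set, and it gave -0.88 in LPS versus control, against -0.09 in the brightest set. With the mean of its probe sets, Ctsl was called higher for the mean effect of luteolin (0.53 ± 0.12, limma adjusted p = 0.0492). Tpp1, tripeptidyl peptidase, gave 0.54 in luteolin + LPS versus LPS and -0.77 in LPS versus control by its other set, against -0.04 and -0.25 in the brightest set.

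The 13 glycosidases and sulfatases, which take glycans and glycosaminoglycans apart, held no gene that passed without the block. Man2b1, the lysosomal alpha-mannosidase, had 2427, 1469 and 1793 in luteolin + LPS and 2136, 2233 and 1806 in LPS, against 2947, 2472 and 2939 in luteolin and 3702, 3179 and 2959 in control. Every array with LPS was below every array without it. Man2b1 had a log2 fold change of -0.67 ± 0.18 in LPS versus control (adjusted p = 0.0620, and 0.0234 with the block), and the other Man2b1 probe set gave -0.48. In luteolin + LPS versus luteolin it was -0.58 ± 0.18 (adjusted p = 0.171, and 0.0640 with the block). The LPS comparison also passed without luteolin + LPS replicate 1 (adjusted p = 0.0267) or replicate 2 (0.0346), and the one within luteolin without luteolin + LPS replicate 1 (log2 fold change -0.77, adjusted p = 0.0413).

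Manba encodes beta-mannosidase, which acts on the last mannose link of N-glycans. It had 944.4, 1061 and 1291 in luteolin + LPS, against 1209, 1832 and 1660 in LPS, and 1048, 1444 and 1288 in luteolin, against 1768, 1937 and 1687 in control. All 6 cultures with luteolin were below the culture of the same number without it, and the groups were apart at rest while they overlapped with LPS. The log2 fold changes were -0.50 ± 0.18 in luteolin + LPS versus LPS (adjusted p = 0.227) and -0.52 ± 0.18 in luteolin versus control (adjusted p = 0.415). Their mean was -0.51 ± 0.13 (adjusted p = 0.0586, and 0.0136 with the block), and it passed without luteolin + LPS replicate 3 (adjusted p = 0.0465) or LPS replicate 1 (0.0216).

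Idua, which removes iduronic acid from heparan and dermatan sulfate, had 516.3, 430.1 and 337.9 in luteolin + LPS, against 593.8, 546.3 and 404.1 in LPS. It had 449.3, 356.2 and 346.3 in luteolin, against 644.9, 464.5 and 368.3 in control. Each luteolin culture was below its partner of the same number, but the groups overlapped. The mean effect was -0.30 ± 0.16 (adjusted p = 0.361, and 0.0431 with the block). Neu1, a sialidase, had 1600, 2060 and 1690 in LPS, all above the 1258, 1440 and 1008 of control, with a log2 fold change of 0.54 ± 0.18 (adjusted p = 0.128, and 0.0594 with the block). Its second probe set gave 0.24, and luteolin + LPS had 1606, 1191 and 1325 against 1427, 1358 and 1028 in luteolin.

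Gusb, the beta-glucuronidase that the study used as its control gene for quantitative RT-PCR, had 7881, 8254 and 8886 in luteolin + LPS, against 6507, 9533 and 9218 in LPS, and 8113, 8220 and 8318 in luteolin, against 8395, 9327 and 8426 in control. Its log2 fold changes were 0.01 ± 0.14 and -0.08 ± 0.14 for luteolin with and without LPS, and -0.07 ± 0.14 for LPS versus control. The 95% intervals ran from -0.31 to 0.32, from -0.40 to 0.23 and from -0.38 to 0.24. The other 8 genes of this role, Hexa, Gaa, Gla, Glb1, Galns, Ids, Naglu and Fuca1, were under 0.5 in size in all 4 pairwise comparisons by the brightest probe set. Another set of Gla, alpha-galactosidase A, gave -0.51 in luteolin + LPS versus LPS, with 1053.9, 264.7 and 912.9 in luteolin + LPS, against 698.9, 960.8 and 1093.9 in LPS. The groups overlapped, and luteolin + LPS replicate 2 was the lowest.

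**Figure D3:**
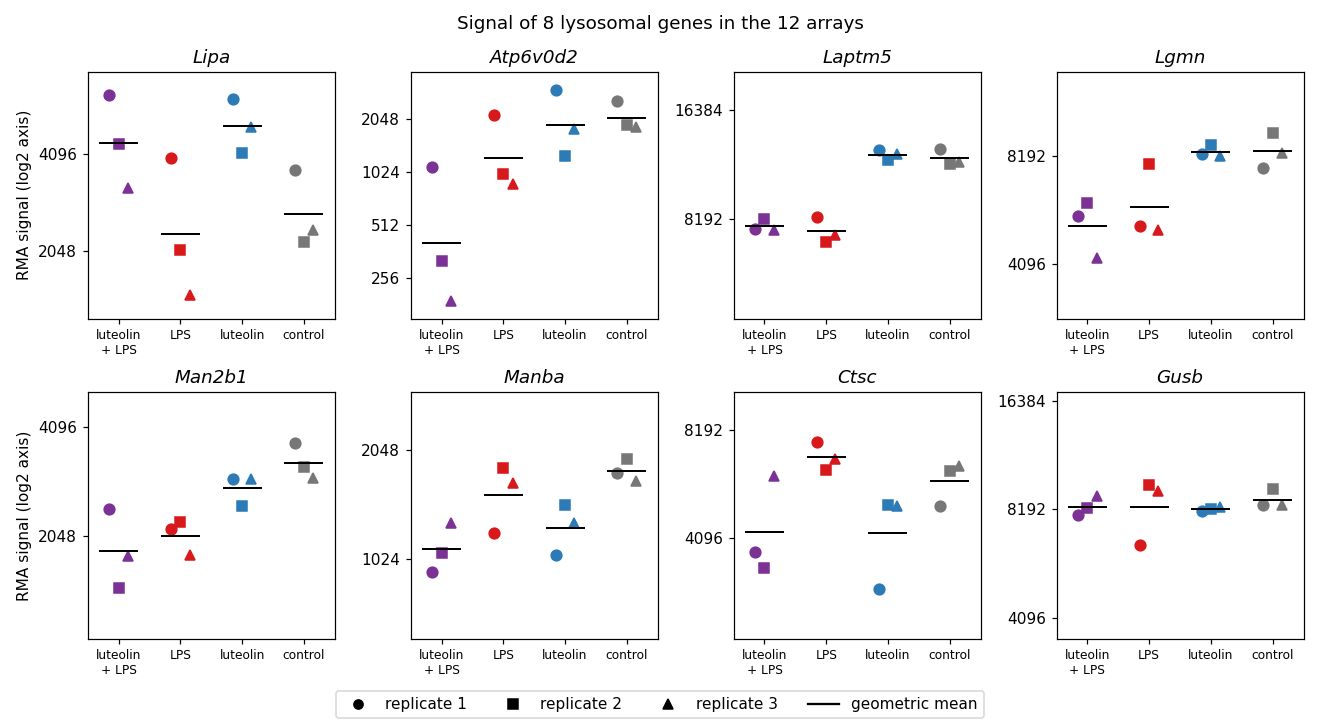
RMA signal (y axis, log2 scale) of 8 lysosomal genes in the 12 arrays, by group, with a symbol for each replicate number and a line for the geometric mean of 3 arrays. Laptm5 and Man2b1 separate the arrays with LPS from those without it, Lipa is higher with luteolin within every replicate number, and replicate 1 of Atp6v0d2 is the highest array in each group.

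Of the 7 genes of lipid breakdown and transport, Lipa alone reached a log2 fold change of 0.5 in size. It had signals of 6252, 4393 and 3214 in luteolin + LPS, against 3996, 2063 and 1491 in LPS. In luteolin it had 6097, 4128 and 4972, against 3662, 2180 and 2378 in control. Luteolin cultures were above their partners of the same number in 6 of 6 pairs, and the groups were apart at rest, while luteolin + LPS replicate 3 was below LPS replicate 1. The log2 fold change was 0.95 ± 0.36 in luteolin + LPS versus LPS (adjusted p = 0.250, and 0.0330 with the block) and 0.91 ± 0.36 in luteolin versus control (adjusted p = 0.474, and 0.0898 with the block). The mean effect was 0.93 ± 0.25, a 1.90-fold higher signal (adjusted p = 0.0770, and 0.00612 with the block), and it was 1.13 without LPS replicate 1 (adjusted p = 0.0200). The 2 other Lipa probe sets gave 1.05 and 1.25 with LPS and 0.99 and 1.08 at rest.

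Lipa and Atp6v0d2 belong to the genes the study listed as changed on these same arrays, so their values here are not independent evidence. LPS versus control gave -0.21 ± 0.36 for Lipa (adjusted p = 0.780). The other 6 lipid genes, Asah1, Smpd1, Ppt1, Psap, Npc1 and Npc2, which encode hydrolases of ceramide, sphingomyelin and lipidated proteins, a sphingolipid activator precursor and a pair of cholesterol transporters, were under 0.5 in size in all 4 pairwise comparisons by the brightest probe set and by each other set with a signal of 50 or more.

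Among the 6 membrane proteins measured, Laptm5 alone passed the test, which used the brightest probe sets. A dimmer Scarb2 set that also fell with LPS is given below, with no test. Laptm5 had 7677, 8161 and 7603 in luteolin + LPS and 8270, 7056 and 7365 in LPS, against 12665, 11942 and 12412 in luteolin and 12820, 11634 and 11773 in control. All 6 arrays with LPS were below all 6 arrays without it. Laptm5 fell by 0.68 ± 0.10 on the log2 scale in LPS versus control (adjusted p = 0.00410, lower in 3 of 3 replicates) and by 0.66 ± 0.10 in luteolin + LPS versus luteolin (adjusted p = 0.00734, lower in 3 of 3). The fold was 1.60 lower with LPS and 1.58 lower with LPS in the presence of luteolin. Luteolin gave 0.05 ± 0.10 with LPS and 0.03 ± 0.10 at rest, with 95% intervals of -0.17 to 0.27 and -0.19 to 0.25.

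The first of these Laptm5 calls held in 20 of 20 alternatives (adjusted p 0.00113 to 0.0409). The second held in 19 of 20 and was lost with the mean over the gene's probe sets (log2 fold change -0.45, adjusted p = 0.0799). The other 3 Laptm5 probe sets with a signal of 50 or more gave -1.16, -0.89 and -0.05 in LPS versus control and -0.60, -0.53 and 0.03 in luteolin + LPS versus luteolin. Set against LPS, luteolin + LPS gave 0.53, 0.56 and -0.05 in these sets, against 0.05 in the brightest set. The Laptm5 probe sets thus gave different sizes for both the LPS and the luteolin difference. The name of the brightest set carries the x mark, by which Affymetrix denotes probes that can bind related transcripts.

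Mcoln1, whose promoter carries TCACGTG, had 887.2, 1040 and 658.8 in luteolin + LPS, against 596.6, 920.1 and 575.4 in LPS, and 1163, 1047 and 761.1 in luteolin, against 579.6, 955.2 and 640.7 in control. It was above its partner of the same number in 6 of 6 pairs, yet the groups overlapped in both states. The mean effect of 0.39 ± 0.18 did not pass (adjusted p = 0.283, and 0.0657 with the block). It was chosen for display after its values had been seen. Lamp1, Lamp2, Cd68 and Scarb2, which encode lysosomal glycoproteins and the receptor that sorts glucocerebrosidase, were under 0.5 in size in all 4 pairwise comparisons by the brightest probe set. The other Scarb2 set gave -0.67 in LPS versus control and -0.48 in luteolin + LPS versus luteolin, against -0.09 and -0.19 in the brightest set. It had 779.9, 1222.3 and 1027.8 in LPS, all below the 1395.0, 1818.1 and 1569.8 of control.

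The 6 subunits of the proton pump were led by Atp6v0d2, the d2 subunit of the membrane sector, which is prominent in osteoclasts and macrophages. It had 1095, 317.8 and 189.9 in luteolin + LPS, against 2151, 1003 and 873.9 in LPS, 3011, 1259 and 1794 in luteolin and 2586, 1898 and 1842 in control. The geometric mean was 404.3 in luteolin + LPS, against 1235 in LPS, 1895 in luteolin and 2083 in control. Replicate 1 was the highest array of each group, and luteolin + LPS replicate 1 was above both other LPS arrays. The log2 fold change was -1.61 ± 0.58 in luteolin + LPS versus LPS (adjusted p = 0.219, and 0.0330 with the block) and -2.23 ± 0.58 in luteolin + LPS versus luteolin (adjusted p = 0.0940, and 0.00563 with the block). The second difference was 4.69-fold.

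Luteolin alone gave -0.14 ± 0.58 for Atp6v0d2 (adjusted p = 0.984), LPS alone gave -0.75 ± 0.58 (adjusted p = 0.490), and the mean effect of luteolin was -0.87 ± 0.41 (adjusted p = 0.271, and 0.0434 with the block). The interaction was -1.47 ± 0.81 (adjusted p = 0.999, and 0.751 with the block), so the luteolin difference was not shown to be larger in activated cells. Without luteolin + LPS replicate 1, the differences were -2.33 against LPS (adjusted p = 0.0452) and -2.95 against luteolin (adjusted p = 0.00991). The other Atp6v0d2 probe set gave -1.49 and -2.21 in the same comparisons.

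Atp6v1b2, the widespread B2 subunit of the catalytic sector, had 7196, 6252 and 5785 in luteolin + LPS, against 7368, 7088 and 6152 in LPS, 9323, 8405 and 8450 in luteolin and 8030, 8861 and 7709 in control. Luteolin + LPS arrays were all below luteolin arrays, and LPS arrays were all below control arrays. Atp6v1b2 differed by -0.45 ± 0.12 on the log2 scale in luteolin + LPS versus luteolin (adjusted p = 0.107, and 0.0344 with the block) and -0.26 ± 0.12 in LPS versus control (adjusted p = 0.257). The 2 other probe sets gave -0.54 and -0.18 in the first of these. All 6 pump subunits lay below 0 in LPS versus control, with a median of -0.30 and none past the test, and 5 of 6 in luteolin + LPS versus luteolin, with a median of -0.33. Of 10 further V-ATPase subunits tested, the median was 0.05 in LPS versus control, where Atp6v0b was called higher, and -0.04 in luteolin + LPS versus luteolin. Atp6v0a1, Atp6v0d1, Atp6v1a and Atp6v1h were under 0.5 in size in all 4 pairwise comparisons by the brightest probe set.

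Neither regulator passed the test. Tfeb, the transcription factor that drives lysosomal gene expression, had 274.1, 196.1 and 229.5 in luteolin + LPS, against 349.4, 248.1 and 225.4 in LPS, and 271.0, 288.7 and 306.6 in luteolin, against 354.4, 270.9 and 300.5 in control. Its log2 fold changes were -0.22 ± 0.18, -0.09 ± 0.18 and -0.19 ± 0.18 for luteolin with LPS, luteolin at rest and LPS versus control. Grn, which encodes progranulin, a protein needed for normal lysosomal function, had 11486, 8119 and 9068 in luteolin + LPS, against 11011, 12686 and 11733 in LPS, and 12038, 10503 and 11085 in luteolin, against 13167, 13119 and 12613 in control. In this brightest Grn set the groups were apart at rest and overlapped with LPS. The mean effect of -0.27 ± 0.09 did not pass (adjusted p = 0.150, and 0.0942 with the block). The other Grn sets, of similar signal, gave a smaller mean effect of -0.10 each, and -0.11 and -0.05 at rest. In the set with -0.05, luteolin replicate 1 (10359) was above control replicate 3 (9898), while in the other set the groups stayed apart at rest.

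The arrays of the groups were also compared without regard to the test. In luteolin + LPS versus LPS, 0 of 45 genes had all arrays higher and 4 had all arrays lower (Ctsc, Ctsz, Psap and Lamp2), against 8.05% and 8.04% of all genes. In luteolin versus control, 1 was higher (Lipa) and 6 lower (Ctsa, Gusb, Man2b1, Manba, Atp6v0a1 and Grn), against 8.29% and 11.3%. In LPS versus control, 4 were higher (Ctsz, Gla, Neu1 and Npc2) and 6 lower (Man2b1, Fuca1, Laptm5, Atp6v0a1, Atp6v0d1 and Atp6v1b2), against 11.5% and 16.1%. For luteolin + LPS versus luteolin, 0 were higher and 9 lower, against 7.36% and 10.2%. These counts use the brightest probe sets, and other sets of some named genes overlapped. A Lamp2 set of similar signal had 7180, 6792 and 6189 in luteolin + LPS, against 6314, 6913 and 6766 in LPS. The other Gusb set and a Grn set overlapped in luteolin versus control, and the Gla set given above in LPS versus control.

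Across the 45 genes, the log2 fold changes of luteolin with and without LPS, which come from different arrays, correlated at 0.627 (Pearson's r) and 0.504 (Spearman's rho). Without Lipa and Atp6v0d2, r was 0.654 and rho 0.460. The sign was shared by 27 of 45 genes (60.0%), against 65.9% of all genes, for which r was 0.489. Genes are not independent replicates, and the values are a description.

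**Figure D4:**
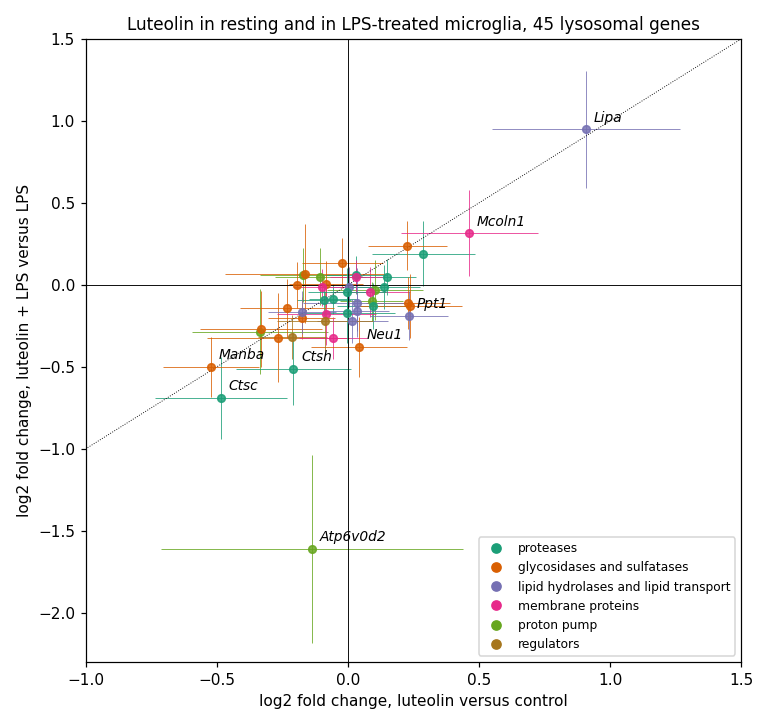
Log2 fold change of luteolin + LPS versus LPS (y axis) against that of luteolin versus control (x axis) for the 45 lysosomal genes, coloured by role, with standard errors as bars and equality as the dotted line. Lipa (0.91, 0.95) and Manba (-0.52, -0.50) lie near equality, and Atp6v0d2 (-0.14, -1.61) lies below it with wide bars.

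Genes with and without the promoter motif overlapped in their values. The 11 genes with TCACGTG had a median log2 fold change of -0.01 (from -0.17 to 0.31) in luteolin + LPS versus LPS, and the 26 measured genes whose window lacked it had -0.15 (from -0.69 to 0.95). In luteolin versus control the medians were -0.02 and 0.01, in LPS versus control -0.13 and -0.09, and in luteolin + LPS versus luteolin -0.17 and -0.18. Lgmn carried the motif in 1 of its 2 windows, with the core starting 49 bases before the start, while Lipa, Laptm5, Man2b1, Manba, Ctsc, Neu1 and Idua did not carry it. The match is a description of letters in these windows.

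Other genes of the lysosomal pathway were also called. Of 92 genes in 7 further lists, 84 were tested. LPS raised 3 and lowered 6 of them relative to control, against 1.96% and 2.22% of all genes tested. With the block it raised 5 and lowered 10, against 4.29% and 6.79%. Acp5, tartrate-resistant acid phosphatase, had 57.9, 45.5 and 75.9 in luteolin + LPS and 301.2, 295.6 and 234.0 in LPS, against 33.9, 42.9 and 52.0 in control. It rose by 2.70 ± 0.20 on the log2 scale with LPS (adjusted p = 0.000192) and fell by 2.23 ± 0.20 in luteolin + LPS versus LPS (adjusted p = 0.00404). With signals under 50 set to 50, these were 2.44 and -2.19. The second call was lost when only the 2 groups compared were fitted (adjusted p = 0.204).

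LPS lowered Ctsf, cathepsin F, to 269.0, 358.1 and 239.1, against 689.1, 811.2 and 602.7 in control (log2 fold change -1.29 ± 0.18, adjusted p = 0.00321). Slc17a5, the sialic acid exporter, fell to 448.5, 633.0 and 484.3 in LPS, against 1259, 1222 and 1292 in control (-1.28 ± 0.14, adjusted p = 0.00111), and was also lower in luteolin + LPS than in luteolin (-1.07 ± 0.14, adjusted p = 0.00354). The calls for Acp5, Ctsf and Slc17a5 in LPS versus control held in 20 of 20 alternatives. Tpcn1, an endolysosomal cation channel, at -1.05, and Flcn, folliculin, which acts in the nutrient control of TFEB, at -0.86, each held in 18 of 20. Gm2a, the activator of ganglioside GM2 breakdown (-0.54), Cst3, cystatin C, which inhibits cathepsins (-0.55), Clcn7, a chloride-proton exchanger (0.61), and Atp6v0b, a further pump subunit (0.48), held in 7, 10, 6 and 14 of 20.

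Within luteolin-treated cells, LPS lowered 4 of the 84 and raised 0, against 1% and 0.804% of all genes (8 and 4 with the block, against 2.85% and 1.74%). Beside Slc17a5 these were Slc29a3, a lysosomal nucleoside transporter (-0.90), Flcn (-0.73) and Gnptab, which tags hydrolases for transport to the lysosome (-0.65), and they held in 7, 11 and 7 of 20 alternatives. In luteolin + LPS versus LPS, 2 were lower and 0 higher, against 0.356% and 0.149% of all genes (3 and 5 with the block, against 2.84% and 1.95%). The second beside Acp5 was Cst7, cystatin F, a cathepsin inhibitor of immune cells, with 1317, 837.5 and 1564 in luteolin + LPS, against 4625, 3458 and 3280 in LPS (-1.64 ± 0.26, adjusted p = 0.0258, held in 13 of 20 alternatives). The study listed Cst7 as lowered by luteolin on these same arrays, at rest and with LPS, so its values here are not independent evidence. The study also reported lower Cst7 by quantitative RT-PCR. In luteolin versus control, 0 of the 84, Cst7 included, were called here in either direction, against 0% of all genes. With the block 1 was higher and 0 lower, against 0.0829% and 0.199%.

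The mean effect of luteolin was called in 4 higher and 3 lower genes of the 84, against 1.16% and 1.92% of all genes. With the block 9 were higher and 5 lower, against 3.89% and 6.23%. Slc11a1, a metal ion transporter of phagosomes, had 6532, 4564 and 5577 in luteolin + LPS, against 4246, 3147 and 2833 in LPS, and 4599, 3433 and 3784 in luteolin, against 2715, 2025 and 1825 in control. It rose by 0.78 ± 0.15 (adjusted p = 0.0220, and 0.00207 with the block) and held in 13 of 19 alternatives. Tmem175, a lysosomal potassium channel (0.74), Ctso, cathepsin O (0.64), and Becn1, a core autophagy protein (0.38), were higher and held in 9, 8 and 7 of 19. Acp5 (-1.14) and Cst7 (-1.38) were lower and held in 19 of 19, and Uvrag, a partner of beclin (-0.54), held in 11 of 19. The interaction was called in 0 of the 84, with and without the block. Over the genes of these lists that lost a call, the adjusted p reached at most 0.215 under any alternative, and arrays of each of the 4 groups were among those whose omission lost a call.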

How the data were processed

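BV-2 cultures of 4 groups were hybridized to Affymetrix Mouse Genome 430 2.0 arrays, 3 per group. The authors summarized the scans with RMA (background correction, quantile normalization and median polish), and the deposited values are linear intensities, 1 per probe set and array. In the labels, the RNA extraction is described for PUER cells and the labelling with a sense-strand kit, while the paper describes BV-2 and cRNA. They were treated as BV-2 arrays. Single probes and scans were not used, so the precision rests on the number of arrays.

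Of 45101 probe sets, 34958 named 1 gene, 932 several (left out) and 9211 none here, by the platform annotation with symbols updated through RefSeq. After taking the log2, each of 18162 genes was represented by its brightest probe set on average. Genes with a mean signal of 50 or more in at least 1 group, 12064 in all, were fitted in 1 model with 4 group means (limma 3.58.1, R 4.3.3: lmFit, contrasts.fit, eBayes), with Benjamini-Hochberg adjustment over all genes and a threshold of 0.05. All 45 lysosomal genes passed that filter, with signals of 189.9 to 20526. The study used a single-probe method, which these values do not allow. The fit without a block was also run on simulated arrays with independent errors and no replicate or LPS effect. That run cannot bear on the pairing of replicates or on the blocked fit. Figures were drawn with matplotlib 3.10.9.

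The paper describes 3 independent RNAs per group, and the labels number the replicates 1 to 3. Deviations from the group means correlated in all 18 pairs of arrays that share a number (r 0.101 to 0.591, median 0.420), against a median of -0.295 over 36 pairs that do not. Deviations within a group sum to 0, so positive values in pairs that share a number push the other pairs below 0. The second median therefore adds no support for pairing. On the values of the pairs that share a number, the numbers were taken to pair the cultures. A blocked fit, with a term for the number, is given where it changes a call.

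Named were the lysosomal genes whose adjusted p was under 0.05 in the fit reported or the blocked fit, or with a log2 fold change of 0.5 or more in size, the study's control gene Gusb, and genes of the other lists with an adjusted p under 0.05. Mcoln1, Tfeb and Grn, and the genes listed for arrays that do not overlap, fall outside this rule. The members and lists were chosen with earlier results of these data known. Alternatives were a fixed and a random replicate block, the averaged probe sets of each gene, no filter, quantile normalization once more, median centring, signals under 50 set to 50, only the groups compared, and each array left out in turn.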

Additional observations from a re-analysis of the deposited data

Results flagged for a closer look

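Luteolin moved Ctss, cathepsin S, a protease of antigen presentation, one way in all 3 replicate pairs at rest and the opposite way in all 3 pairs with LPS. Its log2 fold changes were -0.13 with LPS and 0.10 at rest, and the difference between them was -0.23 ± 0.20 (SE), which did not pass (limma adjusted p = 0.999).

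Ppt1, which removes fatty acids from lipidated proteins, did the same by its brightest probe set. Its log2 fold changes were -0.19 with LPS and 0.23 at rest, and the difference was -0.42 ± 0.21 (limma adjusted p = 0.999). The next brightest Ppt1 set gave -0.29 with LPS and 0.13 at rest, but luteolin replicate 1 (1399) was below control replicate 1 (1433). A dimmer set gave -0.10 with LPS and -0.04 at rest. By the brightest sets, such opposite signs in all pairs were found in 2 of 45 lysosomal genes and in 3.42% of all genes tested.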

How the results depend on the processing

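For the 11 lysosomal genes named by the rule, 24 results were recomputed under up to 20 alternatives, which gave 474 values. Of these, 441 kept their direction and their side of the threshold, 32 passed it where the reported fit did not, 1 no longer passed (Laptm5 in luteolin + LPS versus luteolin, with the mean of its probe sets), and 0 changed sign. The cause of these changes was not tested.

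The replicate block called 1 lysosomal gene higher and 1 lower in luteolin + LPS versus LPS (reported 0 and 0), 3 lower in LPS versus control (reported 1), 4 lower in luteolin + LPS versus luteolin (reported 1), and 1 higher and 4 lower for the mean effect of luteolin (reported 0 and 0). It changed no other call among the 45 genes. The random replicate block called 0 higher and 0 lower in luteolin + LPS versus LPS, 3 lower in LPS versus control, 4 lower in luteolin + LPS versus luteolin, and 1 higher and 2 lower for the mean effect. With median centring 2 were lower in LPS versus control and 1 for the mean effect. With the mean of the probe sets 0 were lower in luteolin + LPS versus luteolin and 1, Ctsl, was higher for the mean effect.

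Leaving out 1 array in turn gave 0 to 1 lower in luteolin + LPS versus LPS, 1 to 2 lower in LPS versus control, 1 to 3 lower in luteolin + LPS versus luteolin, and 0 to 1 higher and 0 to 2 lower for the mean effect, and 0 for each other count. The arrays behind these changes were luteolin + LPS replicates 1, 2 and 3 and LPS replicates 1 and 2. Of 45 genes in luteolin + LPS versus LPS, 33 were below 0 in the reported fit, 29 with median centring and 27 without luteolin + LPS replicate 3. No scaling moved the median of all genes by more than 0.1 on the log2 scale.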
